A study of Homo sapiens with 6 samples.

Results

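The data described here are the H3K4me3 regions of H82 and H524, 2 untreated small cell lung cancer lines grown in culture. Members were all entries of the deposited H3K4me3 peak list of each line, with entries of the same interval merged and their highest score kept. This gave 18208 regions in H82 and 18595 in H524, 36803 of the 61250 regions in the 4 lists of the series. The other lists hold NeuroD1, a neurogenic transcription factor, in the same lines, and are used below only as a second readout. Each line had 1 library per antibody, which leaves no replicate error to set a difference against, and no test was made. Intervals are exact 95% Clopper-Pearson intervals unless another kind is named, and cover counting error only. Each line comes from a single tumour, no genetic change or treatment separates the groups in the labels, and what differs between them is therefore the whole line and its library. The number of reads per library is unknown. The authors' score, read as a −log10 q-value, served to rank regions within their own list, and the number of merged entries of a region is taken as its number of summits. Positions are 1-based in hg19. An hg19 gene annotation or sequence was not used here, so regions are named by position, no promoter could be given its gene, and neither the labelled cell type nor the promoter label could be checked against genes.

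H3K4me3 is trimethylated lysine 4 of histone H3. It is laid down by SETD1 and KMT2 (MLL) complexes, removed by KDM5 demethylases, and found on the nucleosomes beside the start sites of active genes, above all those in CpG islands. Wide stretches of the mark are known from genes that define a cell's identity. Small cell lung cancer is a neuroendocrine tumour in which NEUROD1 marks a subtype.

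Strong and wide H3K4me3 regions were mostly common to H82 and H524, and weak and narrow ones mostly were not. Over the whole lists 9535 regions of H82 (52.4%, 51.6 to 53.1) touched a region of H524 by at least 1 bp. In H524, 9845 regions (52.9%, 52.2 to 53.7) touched one of H82. When an overlap of 50% of both regions was required, the shares were 23.7% (23.1 to 24.4) and 23.2% (22.6 to 23.9). Each list was divided by score rank into 10 classes, and tied scores were kept together. The classes held 1181 to 2339 regions in H82 and 1368 to 2392 in H524. The part of H82 in common fell from 83.6% (81.9 to 85.3) at the highest scores to 24.2% (22.3 to 26.3) at the lowest. In H524 it fell from 83.3% (81.5 to 84.9) to 25.7% (23.7 to 27.8). The intervals of the lines overlapped at both ends. In class 5 the lines were farthest apart, with 51.1% (49.0 to 53.1) of 2339 regions in H82 and 58.4% (55.7 to 61.0) of 1370 in H524. Because of tied scores, class 5 did not cover the same part of both lists.

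Width gave the same order. Regions of up to 400 bp were found in the other line in 29.0% (27.8 to 30.1) of cases in H82 and 31.3% (30.1 to 32.4) in H524. Over 2000 bp the shares were 89.2% (87.3 to 90.9) of 1218 regions and 91.3% (88.3 to 93.7) of 469. A longer region can touch another by 1 bp more easily, so part of this rise can come from the rule for overlap. The size of that part was not tested. Width and score were related within each list, with a Spearman rho of 0.62 over 18208 regions of H82 and 0.58 over 18595 of H524. These values describe regions of 1 library each, which share its depth. Several summits were listed in 34.8% of the H82 regions in common and in 8.75% of those of H82 alone, against 30.4% and 7.67% in H524.

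**Figure D1:**
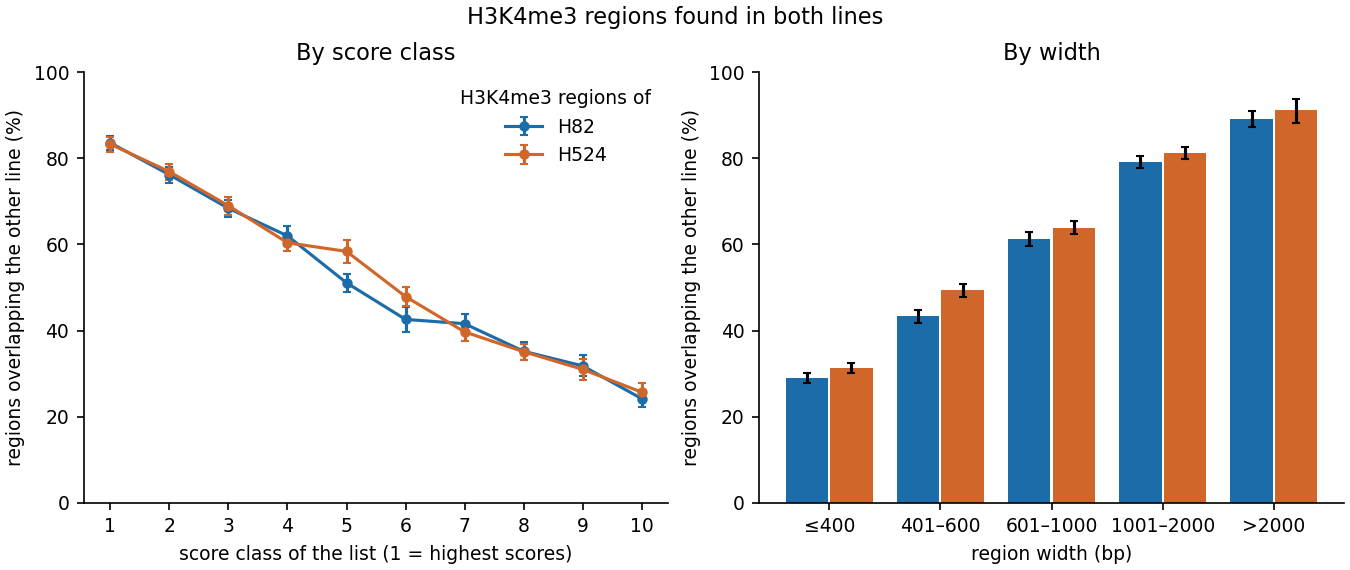
Left, share of H3K4me3 regions that overlap a region of the other line (y axis, %) in each of 10 score classes (x axis, class 1 highest), with exact 95% intervals; right, the same by region width in bp. Both lines fall from 83.6% and 83.3% in class 1 to 24.2% and 25.7% in class 10, and rise with width to 89.2% and 91.3%.

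Most of the highest-scoring regions of a line were marked in the other, and few of them were among its highest-scoring regions. Of the 100 highest-scoring regions of H82, 81 (81.0%, 71.9 to 88.2) had a counterpart somewhere in the H524 list, and 10 (10.0%, 4.90 to 17.6) had one among the 100 highest of H524. From the side of H524 the numbers were 85 and 10. Among the 1000 highest ranks of each list, 15.3% of the H82 and 15.4% of the H524 regions were in both top lists. A top list is part of the whole list, so its share can only be the lower one. Regions near the longest empty stretch of a chromosome (within 2 Mb of it) made up 25 of the H82 and 14 of the H524 top 100, against 2.99% and 3.29% of the whole lists. On chromosome 8 lay 9 and 4 of the top 100, beside 811 of all 18208 regions of H82 and 728 of all 18595 of H524, so the H524 count was near that of the whole list.

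There were 7276 pairs in which 1 region of H82 and 1 of H524 touched only each other. Across these pairs the scores had a Spearman rho of 0.18 and the widths one of 0.32, which are weak relations between 2 libraries. Regions that touched 2 or more of the other line, 961 in H82 and 705 in H524, are not covered by these values. Without chromosome 8 and the regions near the empty stretches, rho was again 0.18 and 0.32 over 6781 pairs. In 24.8% of the pairs the score percentiles lay within 10 of each other, and in 15.8% they were over 50 apart. A paired region typically covered only part of its partner, with a median of 0.502 (quartiles 0.326 and 0.682) for the bases in common over the bases covered by either. The H82 region was the wider of the pair in 4137 cases (56.9%, 55.7 to 58.0), with median widths of 766 and 692 bp. Over the whole lists, 6023 kb were covered in both lines, 40.2% of the marked bases of H82 and 46.6% of those of H524.

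**Figure D2:**
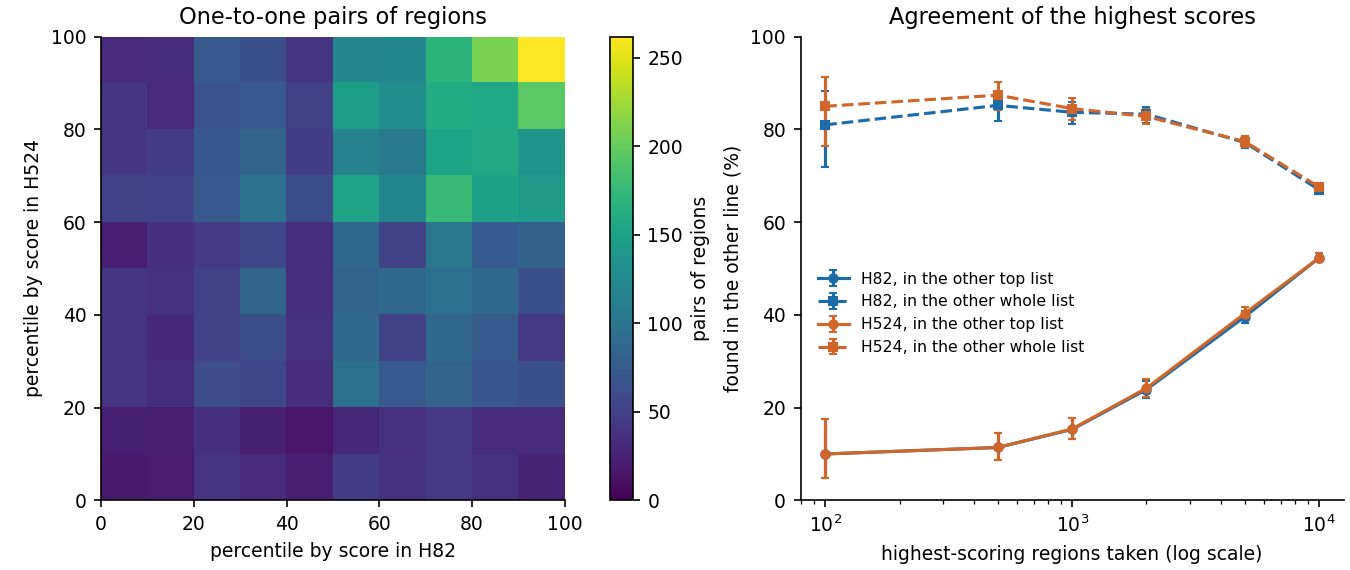
Left, number of one-to-one pairs (colour) by percentile of score in H82 (x axis) and H524 (y axis); right, share of the highest-scoring regions of a line (y axis, %, exact 95% intervals) found in the equally long top list (solid) or the whole list (dashed) of the other line, against the number taken (x axis, log scale). The fullest cell holds 262 pairs in the highest 10% of both lists, and 10 of the 100 highest regions are in both top lists.

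A minority of H3K4me3 regions touched NeuroD1 of either line, and the share was higher among wide regions, as given further on. Over all widths, NeuroD1 of H82 touched 6.34% of H3K4me3 regions in H82 and 3.41% in H524, and NeuroD1 of H524 touched 17.9% and 18.0%.

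Pairs of high rank in H82 and H524 were ordered by the poorer rank. Of the 10 pairs this named, 6 lay near an empty stretch and 2 on chromosome 8. Near the empty stretches were chromosome 7 from 61968834 to 61969624 (ranks 5 in H82 and 4 in H524) and chromosome 1 from 121484422 to 121485405 (ranks 1 and 7). Those 6 pairs held no NeuroD1 of either line. Input libraries were not analysed, so whether high scores near the empty stretches reflect the mark was not tested. Leaving out chromosome 8 and the empty stretches, a choice made after the values were seen, put chromosome 14 from 58616543 to 58619749 first. This H82 region was 3.21 kb wide with rank 21, and met the H524 region from 58617799 to 58619635, which was 1.84 kb wide with rank 15. Both touched NeuroD1 of H524. Chromosome 2 from 70474151 to 70476121 followed, with ranks 71 and 42, and carried NeuroD1 of H82 only. Chromosome 17 gave 61627119 to 61630478 (ranks 113 and 64) and 30677223 to 30679780 (ranks 116 and 76), both given as the H82 intervals. The first touched NeuroD1 of both lines as an H82 region but only that of H524 as the narrower H524 region, and the second touched none. Chromosome 15 from 57510474 to 57515088 (ranks 153 and 36) was wide in both lines, 4.62 and 4.33 kb, with 11 and 9 summits.

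Some positions were among the highest in 1 line and at the edge of the list in the other. The largest difference was on chromosome 8 at 128309413 to 128313182, with rank 3 in H82 against 18493 in H524 and NeuroD1 of both lines. On chromosome 1 a region of 5.47 kb with 10 summits from 212207524 to 212212994 had rank 399 in H82 and met an H524 region of rank 18510. The H82 region touched NeuroD1 of both lines and the H524 region, 0.388 kb wide, touched none. Another on chromosome 1, from 216890802 to 216898522, was 7.72 kb wide with rank 510 and met a single H524 region of 0.266 kb. In the opposite direction, chromosome 19 from 19029136 to 19030230 had rank 87 in H524 and rank 17992 in H82. Chromosome 14 from 75229489 to 75233175 was 3.69 kb wide with rank 101 in H524, against 0.559 kb and rank 17585 in H82. NeuroD1 of neither line touched the second pair on chromosome 1 or the pairs on chromosomes 19 and 14. These positions are examples from 10 pairs in each direction. Further regions higher in H524, on chromosomes 1, 2, 9, 14 and 15, touched NeuroD1 of H524, and those on chromosomes 3 and 7 did not. Of the further regions higher in H82, only chromosome 9 from 128513780 to 128516479 (rank 692) touched NeuroD1 of H82. An overlap of 1 bp thus placed very unequal regions among those in common.

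Wide regions were more frequent in H82. Over 4 kb there were 107 regions in H82 and 22 in H524. The widest of both lists lay at the same place on chromosome 14, from 57269304 to 57283506 in H82 (14.2 kb, 27 summits, rank 24) and from 57276218 to 57284269 in H524 (8.05 kb, 15 summits, rank 167). Both carried NeuroD1 of both lines. Among the 10 widest regions of H82, 6 touched H524 regions and 5 carried NeuroD1 of H82. The 10 widest of H524 all touched H82 regions, and 9 carried NeuroD1 of H524. Regions over 2000 bp touched NeuroD1 of their line more often than the list as a whole. The shares were 18.7% of such H82 regions in common and 20.5% of those of H82 alone, and 59.6% and 22.0% in H524. The 10 widest were wider still, at least 7.72 kb in H82 and 4.60 kb in H524, so these shares are not a matched background. The 4 of the 10 widest H82 regions that touched no H524 region differed in NeuroD1. Chromosome 8 from 128342247 to 128350925 (8.68 kb) and chromosome 17 from 20773228 to 20781892 (8.66 kb, near an empty stretch) carried NeuroD1 of both lines. Chromosome 3 from 101031895 to 101040959 (9.06 kb, 189 kb from the nearest H524 region) and chromosome 7 from 9221224 to 9229439 (8.22 kb, 738 kb from it) carried none, although the joined 15.4 kb locus around the chromosome 3 region did.

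Among the highest-scoring regions of a single line, 5 of the 10 of H82 and 4 of the 10 of H524 lay near an empty stretch, and 3 of the 10 in each line carried NeuroD1 of that line. The regions near an empty stretch were then left out, a choice made after the values were seen. Of the 10 highest that remained, 7 in H82 and 3 in H524 carried NeuroD1 of their own line. Over all regions of a single line the shares were 5.22% in H82 and 9.85% in H524. Over 2000 bp they were 20.5% and 22.0%. Shares among regions of such high score are not given here. Some of the 10 were narrower than 2000 bp, down to 0.352 kb in H82, so neither share is a matched background. On chromosome 8 lay 2 of the 10 H82 regions, both with NeuroD1 of H82, and 1 of the 10 H524 regions, without NeuroD1. The 7 regions in H82 also carried NeuroD1 of H524, where H3K4me3 was not listed. They included chromosome 14 from 60190023 to 60195903 (5.88 kb, 14 summits, rank 25), from 23753371 to 23757327 (3.96 kb, rank 59) and from 56592518 to 56594363 (1.85 kb, rank 65). The 3 regions in H524 carried no NeuroD1 of H82. They were at chromosome 1 from 228770941 to 228771669 (rank 13), chromosome 2 from 45234993 to 45236108 (rank 27) and chromosome 16 from 70488499 to 70489092 (rank 45). The second of these lay 0.710 kb from an H82 region and the third directly beside one.

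Marked positions were often listed as several regions set close together. Of the spaces between neighbouring regions, 4955 in H82 (27.2%) and 3942 in H524 (21.2%) were up to 1 kb long, with medians of 449 and 440.5 bp. No space was shorter than 259 bp in H82 or 256 bp in H524, values close to the smallest region widths of 256 and 253 bp. Such a space in 1 line was filled by a region of the other in a minority of cases. A single H524 region spanned 730 of the H82 spaces (14.7%, 13.8 to 15.8), and a single H82 region spanned 1010 of the H524 spaces (25.6%, 24.3 to 27.0). At least 1 bp of the space was marked in the other line in 48.1% (46.7 to 49.5) and 59.4% (57.8 to 60.9) of cases.

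NeuroD1 lay in these spaces at least as densely as in marked regions. In H82, 158 NeuroD1 region centres fell in 2.51 Mb of spaces, 62.9 per Mb (exact Poisson interval 53.5 to 73.5), against 51.5 per Mb (47.9 to 55.3) inside H3K4me3 regions. In H524 there were 219 per Mb (199 to 241) in the spaces and 166 per Mb (159 to 173) in the regions. The ratios were 1.22 and 1.32, and in H82 the intervals of the 2 densities overlapped.

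Regions of a single line were often close to a mark of the other. Of the 8673 H82 regions without overlap, 2789 (32.2%, 31.2 to 33.2) lay under 1 kb from an H524 region and 1959 (22.6%, 21.7 to 23.5) from 1 to 5 kb. Another 2164 (interval 24.0 to 25.9%) lay over 50 kb away. Of the 8750 H524 regions without overlap, 1899 (21.7%, 20.8 to 22.6) were under 1 kb and 3445 (39.4%, 38.3 to 40.4) over 50 kb away. The distances had a median of 2.92 kb for H82 and 27.4 kb for H524. Regions of H82 alone thus lay mostly within 5 kb of an H524 mark, and regions of H524 alone mostly beyond 5 kb from an H82 mark. Near and far ones were alike in width, with class medians from 391 to 426 bp in H82 and from 396 to 405 bp in H524.

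**Figure D3:**
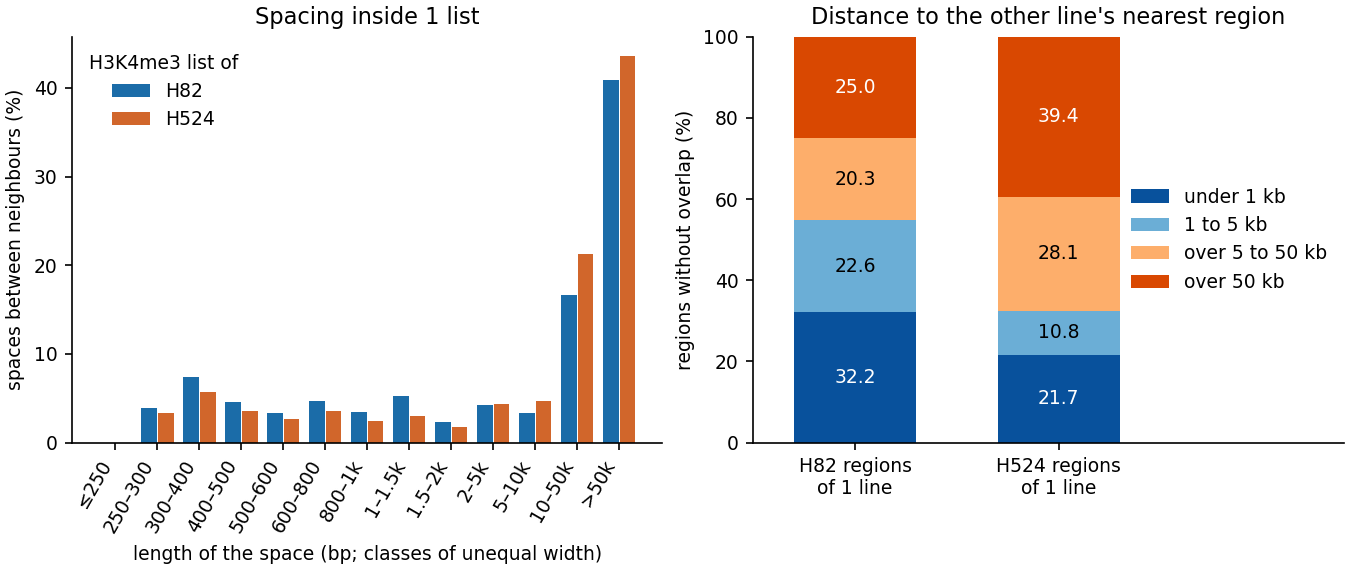
Left, share of the spaces between neighbouring H3K4me3 regions of a list (y axis, %) by length in bp (x axis, classes of unequal width); right, share of the regions without overlap (y axis, %) by distance to the nearest region of the other line. Spaces of up to 250 bp are absent, and 32.2% of the H82 against 21.7% of the H524 regions of 1 line lie under 1 kb from the other line.

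When regions up to 1 kb apart were joined within each line, a step chosen after the data had been seen, H82 had 13253 stretches and H524 14653. Of these, 60.1% (59.3 to 61.0) in H82 and 54.8% (54.0 to 55.6) in H524 were common to both. Stretches in common were built from at least 2 regions in 37.3% of cases in H82 and 31.3% in H524, against 13.1% and 10.2% of the others. Joining the regions of both lines together gave 18678 marked loci, of which 8427 (45.1%) held both lines, 4370 (23.4%) H82 alone and 5881 (31.5%) H524 alone. The loci of 1 line with the most regions, also singled out after their values were seen, were chromosome 14 from 36973135 to 36990487 in H524 and chromosome 1 from 186423934 to 186432445 in H82. The first spanned 17.4 kb with 9 regions and 25 summits and carried NeuroD1 of H524. The second spanned 8.51 kb with 8 regions and carried no NeuroD1. The H82 locus on chromosome 3 from 77128768 to 77136770 had 6 regions and NeuroD1 of both lines.

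NeuroD1 of H82 was found far more often at loci marked only in H82 than at loci marked only in H524, while the shares for NeuroD1 of H524 were close. The H82 NeuroD1 list touched 7.41% (6.65 to 8.23) of the former and 0.459% (0.303 to 0.667) of the latter, a 16.1-fold ratio and a difference of 6.96 points (Newcombe 95% interval 6.19 to 7.78). The H524 NeuroD1 list touched 9.70% (8.84 to 10.6) and 9.20% (8.47 to 9.97), a difference of 0.503 points (-0.635 to 1.66). Without chromosome 8 the H82 shares were 7.28% and 0.458%, and without chromosome 10 they were 7.68% and 0.461%. At loci marked in both lines, NeuroD1 of H82 was at 10.3% (9.61 to 10.9) and NeuroD1 of H524 at 33.7% (32.7 to 34.8). These loci were also wider, with a median of 1817 bp against 418 and 414 bp. A locus of both lines holds at least 1 region of each by definition, so part of its greater width is set by the joining. Several regions made up 13.4% of the H82 and 10.5% of the H524 loci of 1 line. The H82 and H524 NeuroD1 lists held 3854 and 20593 regions, so neither shares nor their ratios are on the same scale under the NeuroD1 lists. A comparison with the H524 list shortened to 3854 regions was not made for these loci.

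Comparing regions of like width turned the relation between sharing and NeuroD1 in H82 and narrowed it in H524. Over all widths, 7.36% (6.85 to 7.90) of the H82 regions in common and 5.22% (4.76 to 5.71) of the others touched NeuroD1 of H82, a difference of 2.14 points (1.44 to 2.84). It was 0.333 points (-0.434 to 1.07) when regions within 1 kb counted as in common. Within 4 of 5 width classes the order was the other way round, as in regions over 600 and up to 1000 bp with 5.85% (4.95 to 6.86) and 7.62% (6.34 to 9.06). The difference in that class was -1.77 points (-3.44 to -0.183). In each of the other classes the interval of the difference included 0. Averaged over the width classes by their size, regions in common had a share 1.06 points lower (difference -1.06, normal 95% interval -1.93 to -0.196). This small difference changed sign when a reciprocal overlap of 50% was required, to 0.245 points with an interval that included 0. The other alternatives gave negative values. They ranged from -0.812 points (-1.69 to 0.0707) without chromosome 8 to -2.31 points (-3.29 to -1.34) with regions within 1 kb counted as in common.

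In H524 regions in common touched NeuroD1 of H524 more often in all 5 width classes. The shares were 14.3% (12.8 to 16.0) and 6.10% (5.41 to 6.84) up to 400 bp, and 59.6% (54.8 to 64.3) of 428 and 22.0% (10.6 to 37.6) of 41 over 2000 bp. The difference was 15.5 points (14.4 to 16.5) over all widths and 9.90 points (8.71 to 11.1) averaged over width classes. With the H524 NeuroD1 list shortened to the 3854 regions of the H82 list, an alternative added later, it was 1.48 points, with an interval from 0.961 points upward. NeuroD1 of the other line too was more frequent at regions in common, by 13.3 points (12.1 to 14.5) for H524 NeuroD1 on H82 regions and 4.65 points (4.15 to 5.15) for H82 NeuroD1 on H524 regions, both averaged over width classes.

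**Figure D4:**
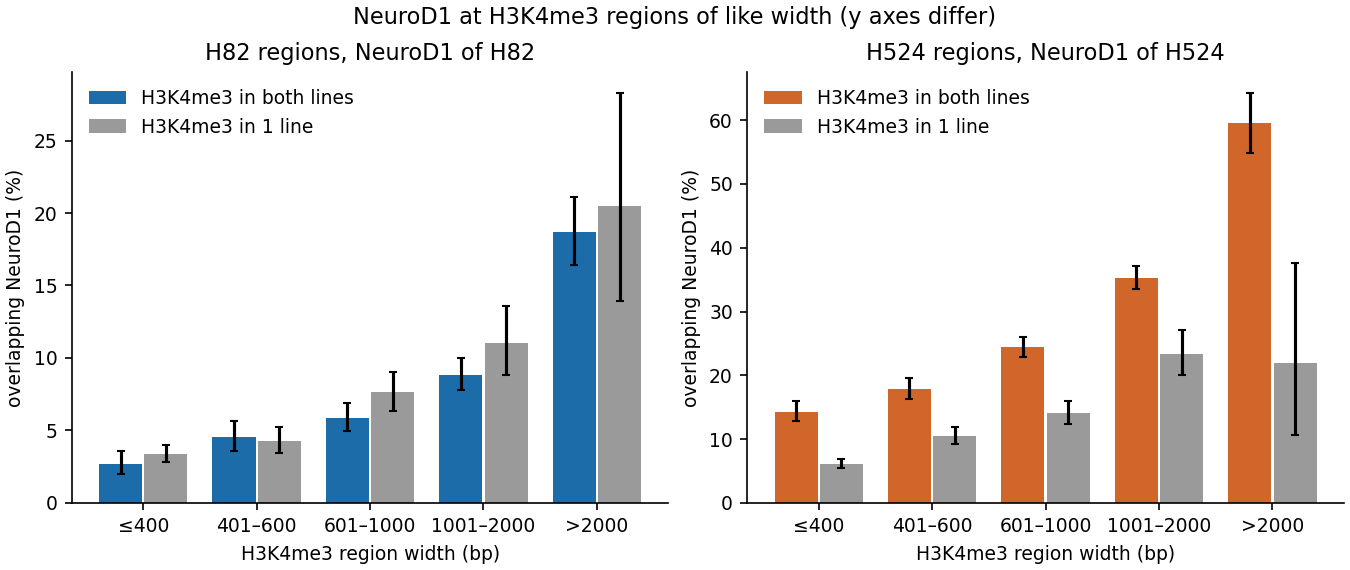
Share of H3K4me3 regions that overlap NeuroD1 of the same line (y axis, %, exact 95% intervals, scales differ) by region width in bp (x axis), for H3K4me3 found in both lines (coloured) and in 1 line (grey), in H82 (left) and H524 (right). In H524 the coloured bar is higher in all 5 classes, while in H82 it is lower in 4 of 5, with overlapping intervals.

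Along the chromosomes the lines had similar numbers of marked regions in most places and very different numbers in a few. Of 510 blocks of 5 Mb with at least 20 regions in both lists together, 373 (73.1%) had counts within 1.5-fold of each other, and the counts had a Spearman rho of 0.74 across blocks. H82 had at least 3 times as many regions as H524 in 20 blocks (3.92%), of which 12 were on chromosome 10 and 4 on chromosome 4. H524 had at least 3 times as many in 8 blocks (1.57%), of which 3 were on chromosome 19 and 2 on chromosome 5.

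Chromosome 10 was the sparsest in H524, with 144 regions against 550 in H82. H82 had more regions in all 15 of its blocks that held at least 20 regions in both lists together. Of the H82 regions there, 16.7% (13.7 to 20.1) were found in H524, the lowest share of the 23 chromosomes compared. Of the 144 H524 regions, 64.6% (56.2 to 72.4) were found in H82. NeuroD1 was listed on chromosome 10 at 69 regions in H82 and 141 in H524, beside whole lists of 3854 and 20593. On chromosome 19, H524 had 1921 regions and H82 1050, with more in H524 in 10 of 12 blocks. There 30.1% (28.0 to 32.2) of the H524 regions were found in H82, the lowest share for that line, whereas 54.3% (51.2 to 57.3) of the H82 regions were found in H524. The highest shares were 67.0% (60.3 to 73.2) of the H82 regions on chromosome 22 and 72.1% (69.8 to 74.3) of the H524 regions on chromosome 1. On both of these chromosomes the line with the higher share had fewer regions than the other.

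Single blocks differed more than whole chromosomes. From 105 to 110 Mb on chromosome 14, H524 had 59 regions and H82 5, with 26 and 1 NeuroD1 regions. In the first 5 Mb of chromosome 5 there were 58 and 7 H3K4me3 regions and 50 and 1 NeuroD1 regions. From 45 to 50 Mb on chromosome 22 the H3K4me3 regions numbered 36 and 7. In these blocks most of the few H82 regions were found in H524, namely 4 of 5, 5 of 7 and 5 of 7. The widest gaps the other way were on chromosome 9 from 70 to 75 Mb, with 27 regions in H82 and 3 in H524, and on chromosome 10 from 120 to 125 Mb, with 33 and 5. In the chromosome 9 block NeuroD1 was at 7 regions in H82 and 6 in H524, beside whole lists of 3854 and 20593. On chromosome 17 from 5 to 10 Mb the counts were 135 and 37, with 30 and 24 NeuroD1 regions. The part of such block-wide differences under both antibodies in the regions of a single line was not tested.

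**Figure D5:**
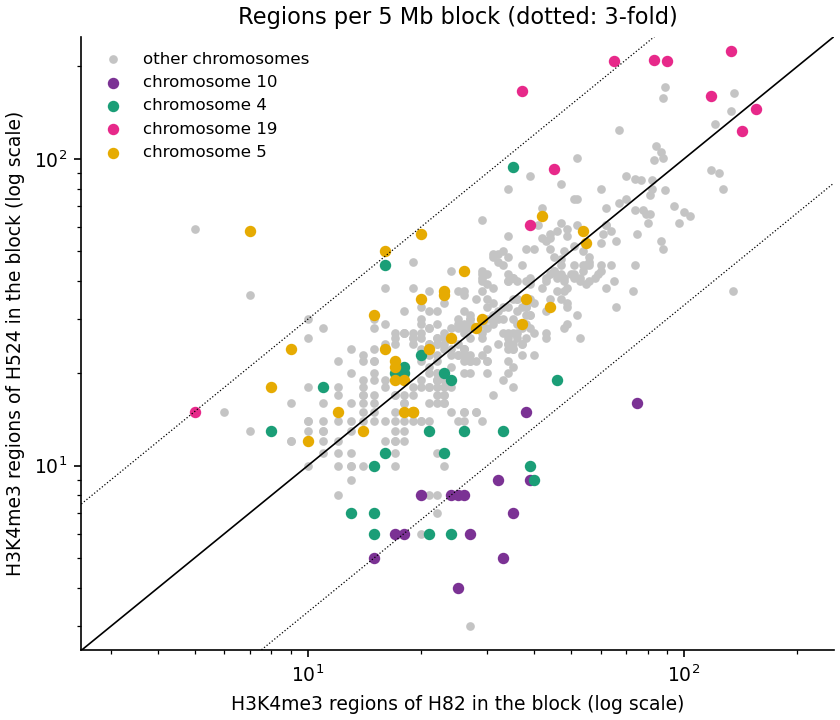
Number of H3K4me3 regions in each of 510 blocks of 5 Mb in H82 (x axis, log scale) and H524 (y axis, log scale); the solid line marks equal counts, the dotted lines a 3-fold difference, and colours mark chromosomes 4, 5, 10 and 19. Blocks shown hold at least 20 regions in both lists together. All 15 such blocks of chromosome 10 lie below the line, and 10 of 12 blocks of chromosome 19 lie above it.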

How the data were processed

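H3K4me3 was profiled by chromatin immunoprecipitation sequencing in untreated H82 and H524 cells, with 1 library each. The submitters' processing notes name hg19 and Bowtie 1.1.2, Picard 1.118, MACS2 2.1.1 and other tools without settings. Input libraries were not analysed here, and their use as controls is not given in the sources used here. Each file holds peak positions and a score, which was read from the values as the authors' −log10 q-value, since the lowest, 1.30 in H82 and 1.31 in H524, lay at the usual 5% threshold. Reads were not counted, so depth is unknown, and a deeper library would list more and wider regions. Scores were ranked only inside a list.

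From these files, entries with the same interval were merged, and overlaps, distances, joined stretches and blocks were computed in Python 3.11.15 with pandas 2.3.3 and scipy 1.17.1. The counting was tested on simulated data and against bedtools 2.31.1. Differences of shares have Newcombe intervals, and averages over 5 width classes weight each class by its size. Named regions are the first 10 by each of these rules: lowest larger rank of both lists, highest rank of 1 line, widest, and largest difference in percentile. The members, lists and rules were chosen with earlier results of these data known. Gene lists and counts of marked genes were planned but not made, because the gene table used here is in GRCh38 and coordinates were not converted between builds. No promoter sequence is shown for the same reason.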

Additional observations from a re-analysis of the deposited data

Results flagged for a closer look

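The relation between H3K4me3 sharing and NeuroD1 had opposite signs in the lines once width was taken into account. Among regions of like width, those in common touched NeuroD1 of their own line less often in H82 (-1.06 points) and more often in H524 (9.90 points), a difference of 11.0 points between the lines. The NeuroD1 lists held 3854 regions in H82 and 20593 in H524, so these shares are not on the same scale. With the H524 list shortened to 3854 regions the H524 value was 1.48 points, and NeuroD1 of H524 on H82 regions gave 13.3 points. Each value comes from 1 library per antibody, and the difference between the lines was not tested. The H82 value did not keep its sign in every alternative.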

How the results depend on the processing

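Of 82 values under 10 alternatives, 40 stayed within the counting interval of the main value, 41 moved outside it and 1 changed sign; the cause was not tested. Values are given as H82 and H524. With a reciprocal overlap of 50%, the shares in common were 23.7% and 23.2%, the ratio of median widths (in common over single-line, 1.95 and 1.75 as reported) was 1.65 in H82, the NeuroD1 difference was 14.4 points in H524, that for like widths 0.245 points (changed sign) and 8.69 points, and H82 was wider in 55.0% of pairs. With regions within 1 kb counted as in common, the shares were 67.7% and 63.2%, the width ratios 1.68 and 1.59, and the H82 NeuroD1 differences 0.333 points and, for like widths, -2.31 points. With regions at or above the median score, the H82 share was 49.9%, the width ratios 1.60 and 1.43, the NeuroD1 differences 0.702 and 13.6 points, and H82 was wider in 59.8% of pairs. With the 10000 highest-scoring regions these were 51.5%, 1.62 and 1.46, 1.01 and 13.9 points, and 60.2%. Without regions under 300 bp the shares were 53.6% and 55.0% and the width ratios 1.82 and 1.61. Leaving out regions near the empty stretches or chromosome 8 moved none of these values outside its interval. The following alternatives were chosen after seeing the data. Without chromosomes 10 and 19 the shares were 53.4% and 55.5%. With regions joined within 1 kb first, the shares were 60.1% and 54.8%, the width ratios 3.22 and 2.60, the NeuroD1 differences 2.97 and 20.5 points, those for like widths -2.27 and 11.8 points, and H82 was wider in 61.0% of pairs. With the H524 NeuroD1 list shortened, the H524 differences were 2.06 and, for like widths, 1.48 points. Alternatives for counts of marked genes and for regions at gene starts, which need an hg19 annotation, were not run. Unknown depth limits what an unlisted region means: the mark may lie below the threshold there.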
